A study of Mus musculus with 12 samples.

Results

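GSK3 knockout mouse embryonic stem (ES) cells were compared with unmodified ES cells, both grown in serum/LIF and both given the solvent DMSO for 60 h. The comparison holds the 2 libraries labelled as the knockout and the 2 labelled as ES cells in that medium with that solvent, 4 of the 12 libraries of the series, and every gene in their count tables was used. Serum/LIF joins serum with the cytokine LIF, which sustains self-renewal. Both were maintained on growth-arrested mouse embryonic fibroblasts, and a passage onto gelatin preceded the treatment. The remaining 8 libraries hold the same genotypes in serum/LIF with 100 nM JQ1, an inhibitor of BET bromodomain proteins, and unmodified cells in 2iL, a serum-free medium with inhibitors of MEK and GSK3, with DMSO or JQ1. The labels give no parent line or clone for either genotype, and they do not say whether Gsk3a, Gsk3b or both were targeted, or which part of a gene was removed.

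GSK3 is a serine/threonine kinase made by a pair of genes, Gsk3a and Gsk3b. Held in a complex with Axin, Apc and casein kinase 1, it phosphorylates beta-catenin and so marks it for destruction, and Wnt ligands act by halting that step. When beta-catenin accumulates it enters the nucleus and binds the TCF/LEF factors, and in ES cells it is known to lift the repression that Tcf7l1 places on genes of the naive state, the state that resembles the epiblast before implantation. GSK3 also phosphorylates glycogen synthase and a range of transcription factors.

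Library totals were 19910573 and 18154447 expected counts in knockout cells, and 48723436 and 19467093 in unmodified cells. Mitochondrially encoded genes took 10.66% and 11.16% of the counts in knockout cells and 9.44% and 11.85% in unmodified cells. Levels are given as CPM, counts scaled to a common library size, and changes as log2 fold changes of knockout over unmodified cells with their standard error. A gene passed when its adjusted p was under 0.05 by the quasi-likelihood test of edgeR with Benjamini-Hochberg adjustment over the 16987 genes tested. Nothing in the labels says that the replicates were separate cultures, so these p-values measure the spread between libraries, which may be technical. On the first principal component of all 12 libraries, which held 53.9% of the variance, the knockout libraries lay at -12.9 and -16.3, the unmodified serum/LIF libraries at -120 and -111, and the unmodified 2iL libraries with DMSO at 95.3 and 99.7.

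The transcripts of both Gsk3 genes were lower in the libraries labelled knockout but were still present. Gsk3a, the larger kinase (chromosome 7, 25228258 to 25237851 in GRCm38, ENSMUSG00000057177.12), had 24.7 and 23.4 CPM in knockout cells and 76.8 and 65.1 CPM in unmodified cells. The groups did not overlap, which was so for 72.3% of all genes tested. The log2 fold change of Gsk3a was -1.56 ± 0.13 (adjusted p = 2.07e-06). Gsk3b, the smaller one (chromosome 16, 38089001 to 38246084, ENSMUSG00000022812.13), had 51.2 and 42.5 CPM in knockout cells and 74.7 and 72.2 CPM in unmodified cells. It fell by 0.65 ± 0.13 (adjusted p = 0.00166). These counts sum all exons of a gene and cannot tell a deleted part from an intact one, so they check the labels only in part.

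A second difference between the groups bears on every result that follows. Hprt, an X-linked gene of purine salvage whose loss is used for drug selection in some ES cell lines, was at 118 and 126 CPM in knockout cells and at 2.0 and 1.38 CPM in unmodified cells, a log2 difference of 6.11 ± 0.19 (adjusted p = 1.59e-09). The same split held with JQ1, with 142 and 165 CPM in knockout cells and 1.74 and 1.84 CPM in unmodified cells, and unmodified cells in 2iL had 0.505 and 0.276 CPM. The groups did not overlap under either treatment. As no parent line is named, a difference of cell line cannot be told apart from the effect of the knockout in any gene described here.

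**Figure D1:**
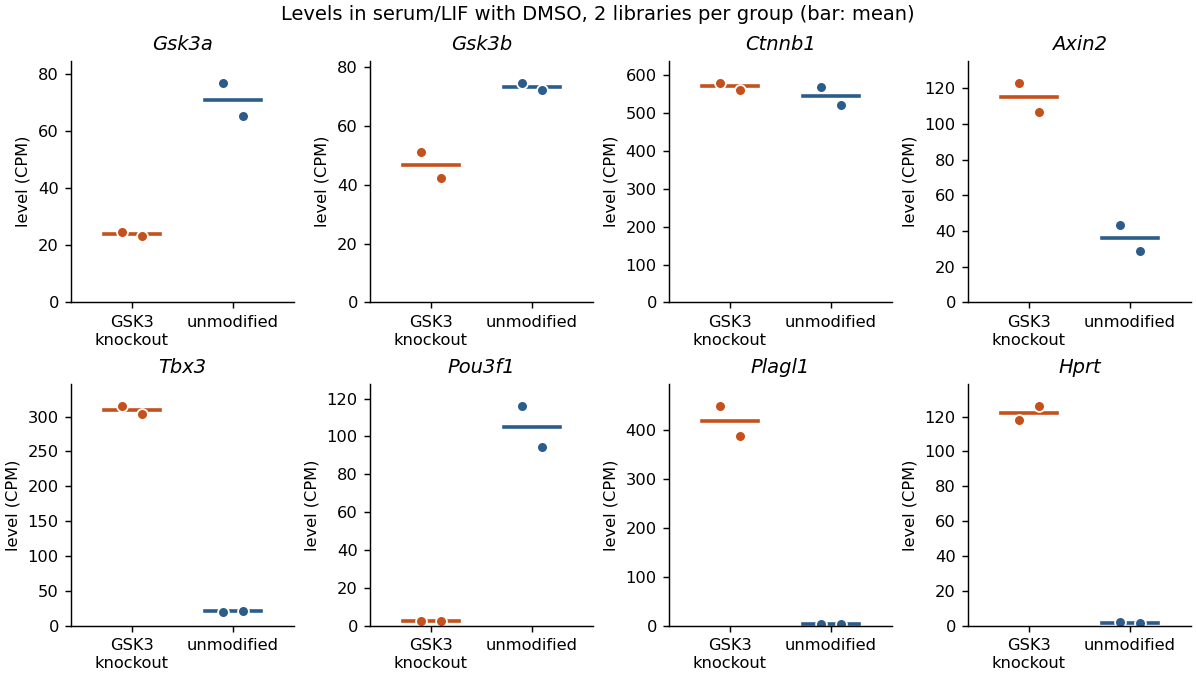
Level in CPM (linear axes from 0) of 8 genes in the 2 knockout and the 2 unmodified libraries in serum/LIF with DMSO; points are libraries and bars are group means. Gsk3a and Gsk3b were lower but present in knockout cells, Ctnnb1 overlapped in part of its range, and Tbx3, Pou3f1, Plagl1 and Hprt were separated by several-fold or more.

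Both groups carried the markers of ES cells. Over all genes tested 18.9% were higher and 21.0% lower in knockout cells, the background for the marker counts given here. The 8 ES cell markers summed to 3260 and 3620 CPM in knockout cells and to 2120 and 2500 CPM in unmodified cells, and 5 of them rose and 1 fell. Markers of fibroblasts, the type of the feeder cells, moved with the genotype: 14 markers summed to 331 and 521 CPM in knockout cells and to 916 and 937 CPM in unmodified cells, and of the 13 tested 11 fell and 0 rose. In unmodified cells in 2iL, which were grown on gelatin, the same markers summed to 17.3 and 11.2 CPM. Markers of primitive endoderm summed to 96.6 and 68.7 CPM in knockout cells and to 54.1 and 37.7 CPM in unmodified cells, with 6 of 7 higher and 1 lower. Trophoblast markers summed to 29.8 and 26.9 CPM in knockout cells and to 78.9 and 40.6 CPM in unmodified cells, with 3 of 4 tested lower and 0 higher. In knockout cells 5 of the 6 trophoblast markers had a mean under 1 CPM, so that Cdx2 made up most of that sum. Mesendoderm markers summed to 136 and 148 CPM against 205 and 140 CPM, with 2 of 6 higher and 3 lower. Neuroectoderm markers summed to 3.66 and 2.51 CPM against 10.4 and 11.2 CPM, with 1 of 3 tested higher and 2 lower. Tpbpa, a trophoblast marker, was at 0 in all 4 libraries, and Olig2, a neural one, at 0 in both knockout libraries. In bulk RNA, fewer cells of a type and less RNA per cell cannot be told apart.

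Of the 16987 genes tested 6790 passed, 40.0% of them, with 3219 higher (18.9%) and 3571 lower (21.0%) in knockout cells. With the scaling of DESeq2 in the same test, 2718 were higher and 3901 lower. The larger changes ran downwards: 1117 genes passed with a log2 fold change of 1 or more (6.58%) and 2374 with one of -1 or less (14.0%). The median log2 fold change over all genes tested was 0.0082. Without unmodified replicate 1, the deepest library, 4512 genes passed. Shares of 18.9% higher and 21.0% lower are the background against which each gene group below is read. Of the 647 genes listed in those groups 613 were tested.

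**Figure D2:**
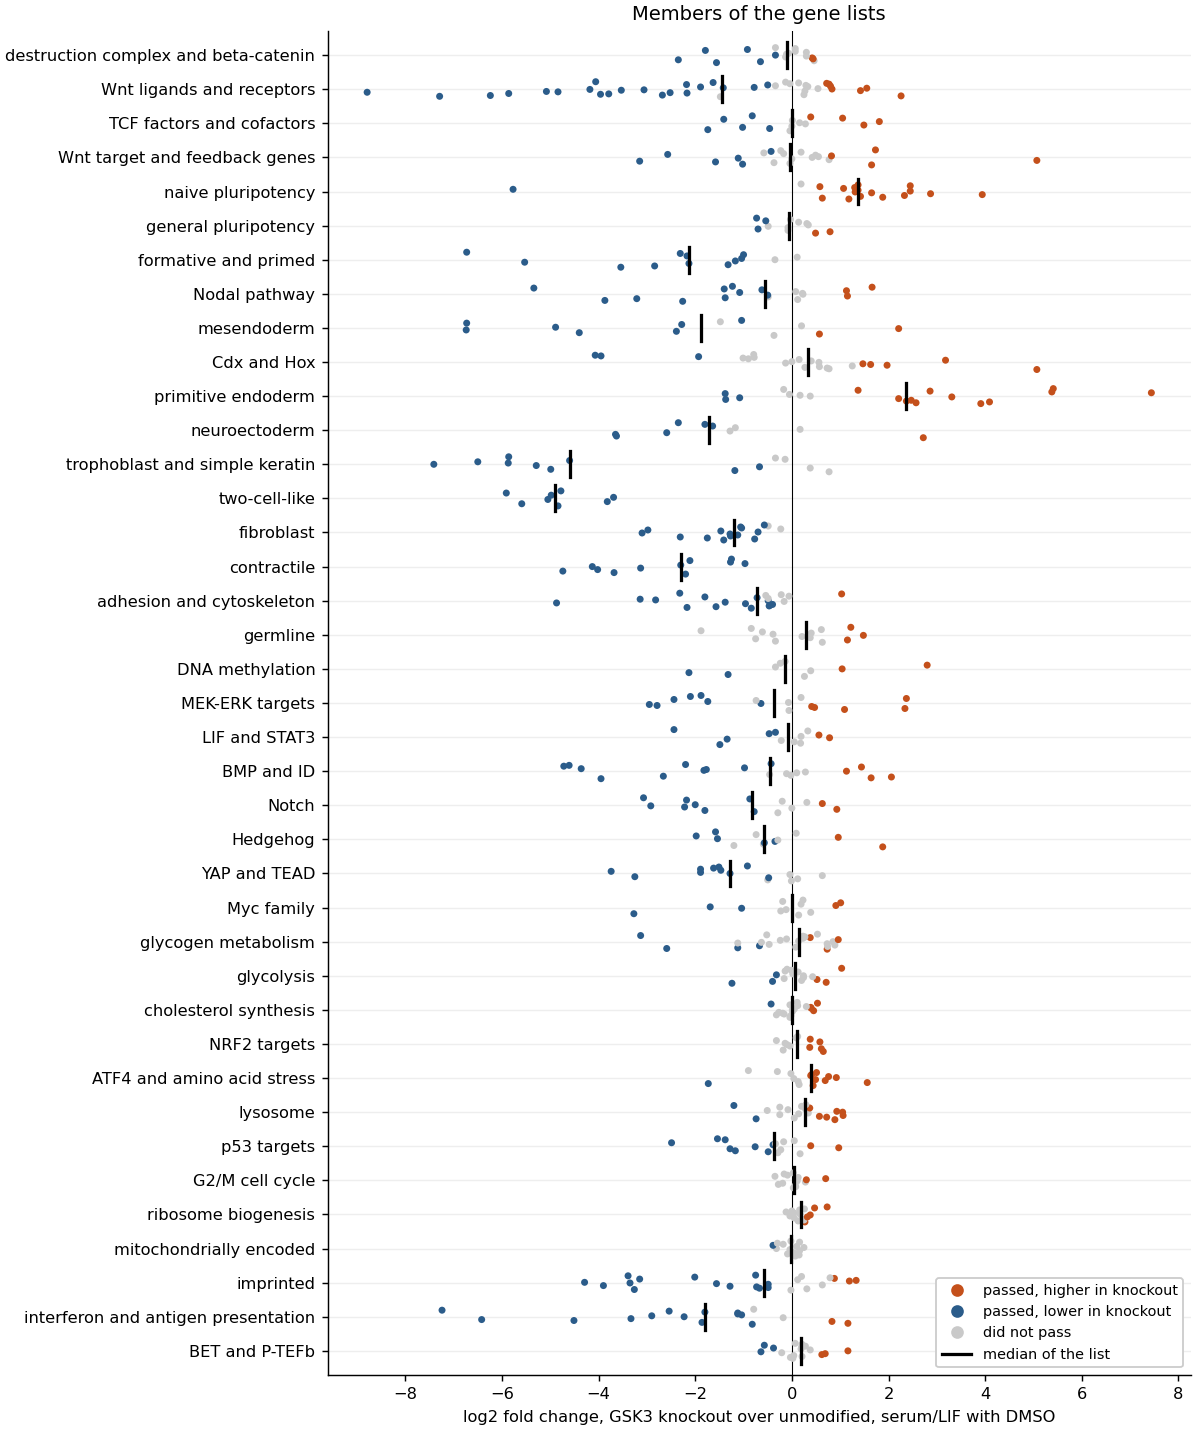
Log2 fold change of knockout over unmodified cells (horizontal axis) for every tested member of 39 gene lists (rows); orange points passed and were higher, blue points passed and were lower, grey points did not pass, and black ticks are medians. Medians lay above 1 for naive pluripotency (1.37) and primitive endoderm (2.37) and below -4 for trophoblast and simple keratin genes (-4.60) and for 2-cell-like genes (-4.91), with this filter on low counts and this count scale.

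Of 17 genes of the beta-catenin destruction complex and its regulators 2 rose (11.8%) and 6 fell (35.3%), with a median of -0.11. Ctnnb1 (chromosome 9, 120929216 to 120960507), which encodes beta-catenin, was at 579 and 561 CPM in knockout cells and at 568 and 521 CPM in unmodified cells and did not pass (0.07 ± 0.09, adjusted p = 0.588). Messenger RNA does not report the stability of the protein, which is the step GSK3 controls. Apc2, a second Apc gene, was at 1.12 and 1.4 CPM in knockout cells and at 7.11 and 5.68 CPM in unmodified cells (-2.35 ± 0.35, adjusted p = 0.00018). Frat1 and Frat2, whose proteins bind GSK3 and keep it from Axin, fell by 1.79 ± 0.54 (adjusted p = 0.0181) and by 0.92 ± 0.28 (adjusted p = 0.0197). Both calls were lost without knockout replicate 1 (adjusted p = 0.149 for Frat1 and adjusted p = 0.11 for Frat2), that of Frat1 also without unmodified replicate 1 (adjusted p = 0.138), and that of Frat2 also without unmodified replicate 2 (adjusted p = 0.0887) or knockout replicate 2 (adjusted p = 0.0698). Ppp2ca, a phosphatase subunit at 262 and 275 CPM in knockout cells and 301 and 261 CPM in unmodified cells, did not pass (-0.07 ± 0.10). The list held between 1 and 3 higher and 3 and 5 lower members with any 1 library left out, with 1 higher and 3 lower without knockout replicate 1, 1 higher without unmodified replicate 2, and a median of 0.05 without unmodified replicate 1.

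Of the genes that act upstream of GSK3, most fell. Of 38 tested Wnt ligands, receptors and their partners 21 fell (55.3%) and 7 rose (18.4%), with a median of -1.45, or -0.78 over 43 genes without the filter on low counts and -0.65 with limma on log2(TPM + 1). Wnt3, a ligand of the canonical pathway expressed in the epiblast, was at 0.66 and 0.447 CPM in knockout cells and at 111 and 64.3 CPM in unmodified cells, and fell by 7.29 ± 0.50 (adjusted p = 3.36e-07). Wnt4 was at 0.508 and 0.95 CPM in knockout cells and at 72.4 and 37 CPM in unmodified cells (-6.24 ± 0.48, adjusted p = 9.26e-07). Wnt7b, a ligand of placental and epithelial tissues, was at 0.711 and 0.391 CPM in knockout cells and at 40 and 25.1 CPM in unmodified cells (-5.86 ± 0.57, adjusted p = 5.63e-06). These 3 ligands were near the floor of detection in both knockout libraries. Wnt9b had no counts in knockout cells and 3.03 and 1.59 CPM in unmodified cells, at least 33.5-fold lower when a floor of 3 counts is taken for the knockout group (adjusted p = 0.00016). Its fitted log2 value was -8.07 without unmodified replicate 1 in place of -8.79, a fitted size that depends on the zero.

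The machinery that releases and receives Wnt proteins changed in both directions. Wls, which carries Wnt proteins to the cell surface, was at 14.2 and 18.1 CPM in knockout cells and at 222 and 151 CPM in unmodified cells (-3.53 ± 0.26, adjusted p = 7e-07). Porcn, which attaches the lipid that Wnt proteins need, was at 48.4 and 64 CPM in knockout cells and at 15.5 and 26.9 CPM in unmodified cells (1.42 ± 0.31, adjusted p = 0.00285). The receptor gene Fzd2 fell to 3.71 and 5.59 CPM in knockout cells, against 95 and 73.2 CPM in unmodified cells (-4.18 ± 0.25, adjusted p = 1.39e-07), whereas Fzd5 rose to 123 and 126 CPM in knockout cells, against 34 and 51.8 CPM in unmodified cells (1.55 ± 0.18, adjusted p = 1.93e-05). Receptor genes thus did not move as one. The coreceptors did not pass, with Lrp6 at 135 and 101 CPM in knockout cells and 92.6 and 101 CPM in unmodified cells (0.29 ± 0.17) and Lrp5 at 102 and 85.9 CPM in knockout cells and 123 and 115 CPM in unmodified cells (-0.34 ± 0.13).

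Among 14 TCF/LEF factors and their cofactors 4 rose and 5 fell, with a median of 0.00, and 2 rose and 4 fell with DESeq2. Tcf7l1, the repressor that dominates this family in ES cells, was at 31.4 and 36.8 CPM in knockout cells and at 113 and 115 CPM in unmodified cells, and fell by 1.74 ± 0.15 (adjusted p = 1.99e-06). Aes, a short corepressor of the Groucho family, rose to 121 and 145 CPM in knockout cells, against 35.7 and 40.2 CPM in unmodified cells (1.81 ± 0.19, adjusted p = 9e-06). Bcl9l, a coactivator that binds beta-catenin, fell by 1.41 ± 0.28 (adjusted p = 0.00147). Tle2, another Groucho corepressor, rose by 1.49 ± 0.36 (adjusted p = 0.00551), a call lost without unmodified replicate 1 (adjusted p = 0.0725). Tle4 (0.16 ± 0.12) and Tle3 (0.28 ± 0.14) did not pass. With 1 library left out the list held between 2 and 3 higher and between 3 and 5 lower members, with 2 and 3 without unmodified replicate 1 and without knockout replicate 1.

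Textbook targets of beta-catenin did not rise as a group: of 21 tested 4 rose (19%) and 6 fell (28.6%), with a median of -0.04. Axin2 (ENSMUSG00000000142.15, chromosome 11, 108920349 to 108950783), a scaffold of the destruction complex and a feedback target of the pathway, was at 123 and 107 CPM in knockout cells and at 43.6 and 29 CPM in unmodified cells. It rose by 1.65 ± 0.26 (adjusted p = 0.000281). Cdx1, a homeobox gene of the posterior body axis that beta-catenin is known to induce, was at 105 and 103 CPM in knockout cells and at 3.58 and 2.35 CPM in unmodified cells (5.07 ± 0.30, adjusted p = 1.28e-07). Both were high in each knockout library, and the groups did not overlap, as for 72.3% of all genes tested. Sp8 and Sp5, transcription factors of the same family, went the other way. Sp8 was at 1.02 and 0.838 CPM in knockout cells and at 9.9 and 6.55 CPM in unmodified cells (-3.15 ± 0.35, adjusted p = 1.46e-05). Sp5 (ENSMUSG00000075304.2, chromosome 2, 70474923 to 70477729) was at 29.9 and 37.3 CPM in knockout cells and at 126 and 73.6 CPM in unmodified cells (-1.58 ± 0.28, adjusted p = 0.00072).

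Lgr5, an R-spondin receptor, was at 0.152 and 0.224 CPM in knockout cells and at 1.59 and 0.563 CPM in unmodified cells (-2.57 ± 0.67, adjusted p = 0.00969), and Wif1, a secreted Wnt inhibitor, at 1.02 and 1.51 CPM in knockout cells and 0.387 and 0.358 CPM in unmodified cells (1.73 ± 0.47, adjusted p = 0.0103). The Lgr5 call was lost without unmodified replicate 1 (-1.56, adjusted p = 0.187) or knockout replicate 1 (adjusted p = 0.086). The Wif1 call was lost without unmodified replicate 1 (adjusted p = 0.0786), unmodified replicate 2 (adjusted p = 0.0561) or knockout replicate 2 (adjusted p = 0.102). T, the mesoderm factor Brachyury, was at 74.2 and 80.3 CPM in knockout cells and at 124 and 75.2 CPM in unmodified cells and did not pass (-0.37 ± 0.23). Ccnd1, which encodes cyclin D1, did not pass either, at 135 and 147 CPM in knockout cells and at 174 and 142 CPM in unmodified cells (-0.17 ± 0.17). Without unmodified replicate 1 the target list held 4 higher and 3 lower members, without knockout replicate 1 it held 4 and 2, and without knockout replicate 2 it held 3 lower.

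Upstream windows of target genes that passed, though not of every such gene, were searched for the TCF/LEF motif given below. Sp5 is shown because, of the genes searched, only its window held a match. Axin2 was picked by name, and it moved in the opposite direction to Sp5. The windows of Lef1, Sp8, Nkd2 and Wif1 held no match, and Znrf3 and Lgr5 had no window. The sequences of Axin2 and Sp5 follow. Each is the 250 bases before the RefSeq start site (GRCm38.p6, plus strand; Axin2 at chr11:108920099-108920348 and Sp5 at chr2:70474673-70474922), with capitals for the TCF/LEF motif ATCAAAG read on either strand.
Axin2: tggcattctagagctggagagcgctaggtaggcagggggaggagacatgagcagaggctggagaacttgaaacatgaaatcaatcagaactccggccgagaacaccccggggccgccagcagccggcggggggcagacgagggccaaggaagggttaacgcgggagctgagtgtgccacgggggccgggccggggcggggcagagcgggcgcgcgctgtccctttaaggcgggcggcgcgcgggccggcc
Sp5: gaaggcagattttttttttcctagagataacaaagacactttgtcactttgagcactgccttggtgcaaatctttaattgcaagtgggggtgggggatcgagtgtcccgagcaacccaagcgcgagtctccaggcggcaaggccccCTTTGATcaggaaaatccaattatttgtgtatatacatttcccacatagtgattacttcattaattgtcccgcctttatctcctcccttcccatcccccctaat
The motif occurred once before Sp5, as CTTTGAT on the strand shown, beginning 104 bases before the start, and the Axin2 window held no match. Among all 32851 RefSeq upstream windows of this length, 1053 held it (3.21%). Counted by gene, 2.72% of the 11747 tested genes with a window held it in any window. Among these genes it was found before 2.51% of those that rose, 2.6% of those that fell and 2.85% of those that did not pass. The match is a description of these letters and not evidence of binding.

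**Figure D3:**
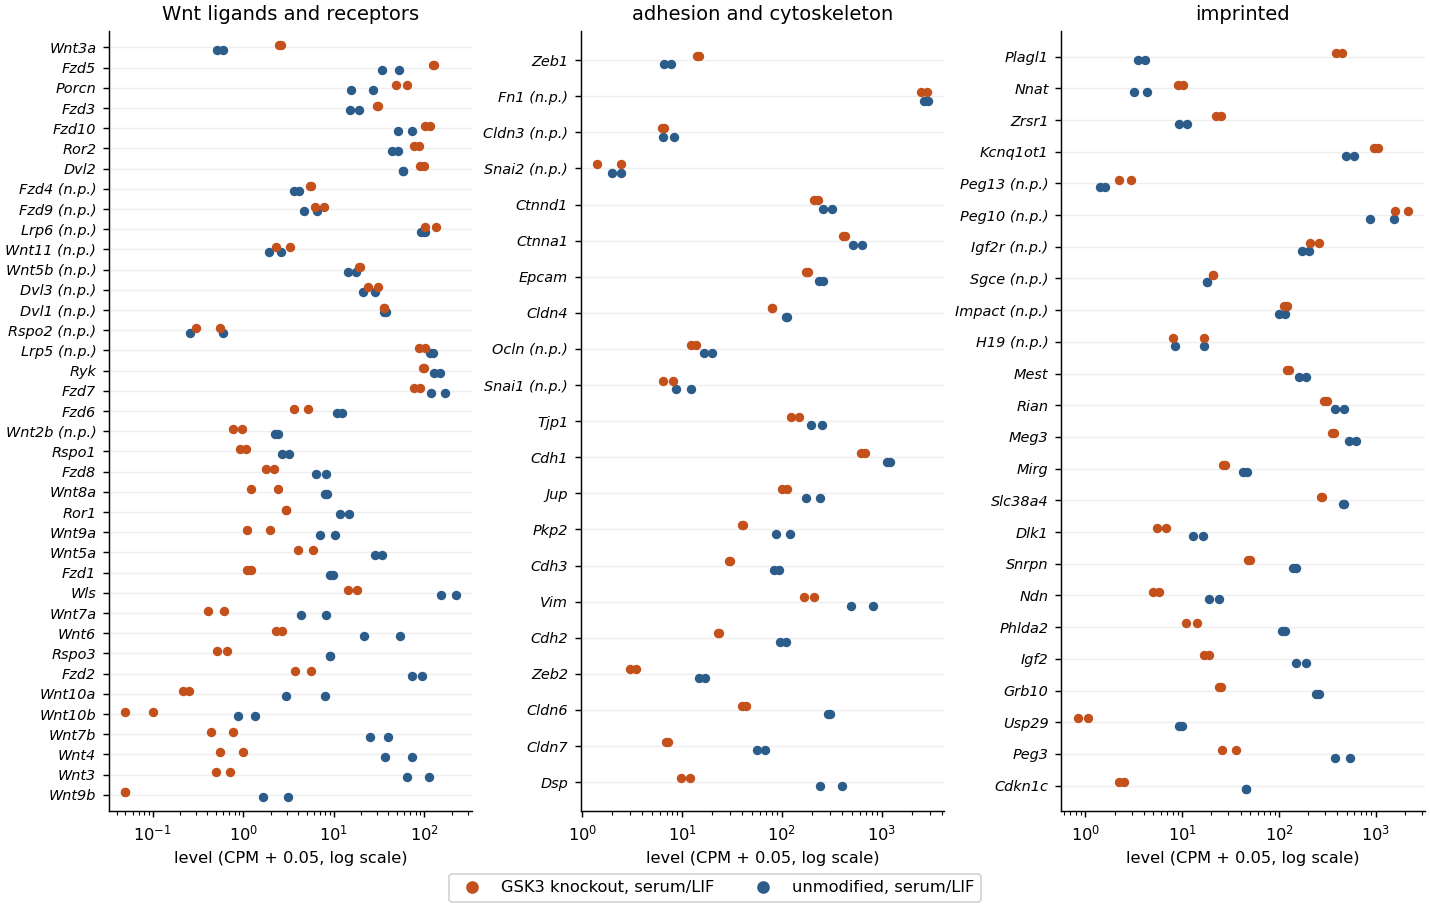
Level in each library (CPM + 0.05, log axis) of tested Wnt ligands and receptors, adhesion and cytoskeleton genes, and imprinted genes, in order of log2 fold change; orange points are the 2 knockout libraries and blue points the 2 unmodified libraries in serum/LIF with DMSO, and n.p. marks genes that did not pass. Wnt9b, Wnt3 and Dsp stand far to the left in knockout cells and Plagl1 far to the right.

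Genes of the naive state were the group that rose most uniformly. Of 18 tested 16 rose (88.9%) and 1 fell, with a median of 1.37. Tbx3 (ENSMUSG00000018604.18, chromosome 5, 119670669 to 119684724), a T-box factor of naive cells, was at 315 and 303 CPM in knockout cells and at 20 and 20.5 CPM in unmodified cells, and rose by 3.94 ± 0.13 (adjusted p = 1.59e-09). Tfcp2l1, a factor downstream of LIF and of Tcf7l1, was at 535 and 459 CPM in knockout cells and at 55.4 and 81.4 CPM in unmodified cells (2.87 ± 0.17, adjusted p = 1.47e-07). Gbx2, a homeobox gene that helps hold the naive state, was at 47.1 and 40.9 CPM in knockout cells and at 6.62 and 9.77 CPM in unmodified cells (2.45 ± 0.23, adjusted p = 3.98e-06). In each of these both knockout libraries stood well above both unmodified ones. Esrrb, known as a main gene freed from Tcf7l1 when GSK3 is inhibited, was at 511 and 494 CPM in knockout cells and at 75 and 126 CPM in unmodified cells (2.33 ± 0.22, adjusted p = 3.98e-06). Klf4 (1.88 ± 0.14), Prdm14 (1.65 ± 0.30), Zfp42 (1.37 ± 0.22), Nr5a2 (1.31 ± 0.16) and Nanog (1.18 ± 0.14, at 340.0 and 372 CPM in knockout cells and 140.0 and 174 CPM in unmodified cells) also rose, and Klf2 (0.63 ± 0.17) and Fgf4 (0.58 ± 0.18) rose least. The calls of Klf2 and Fgf4 were lost without unmodified replicate 1 (adjusted p = 0.112 and adjusted p = 0.242) and without knockout replicate 1 (adjusted p = 0.0585 and adjusted p = 0.0929), and that of Fgf4 also without knockout replicate 2 (adjusted p = 0.069). Stat3, the transcription factor that LIF activates, did not pass (0.19 ± 0.11).

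Dppa3, a maternal factor that guards DNA methylation and is counted among naive genes, was the exception. It had 0.0508 and 0.503 CPM in knockout cells and 10.9 and 19.3 CPM in unmodified cells, which is 10 counts in the knockout libraries together against 910 in the unmodified ones. It fell by 5.77 ± 0.58 (adjusted p = 7.24e-06), with -4.87 without knockout replicate 1 and -8.05 without knockout replicate 2. In unmodified cells in 2iL it stood at 3.07 and 4.79 CPM.

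Genes of the formative and primed states, which follow the naive state as the epiblast implants, fell in step. Of 13 tested 11 fell (84.6%) and 0 rose, with a median of -2.13. Fgf8, a growth factor of the early embryo, was at 0.356 and 0.224 CPM in knockout cells and at 35.8 and 27.1 CPM in unmodified cells (-6.73 ± 0.32, adjusted p = 3.12e-08). Pou3f1, also called Oct6, was at 2.18 and 2.35 CPM in knockout cells and at 116 and 94.2 CPM in unmodified cells (-5.53 ± 0.21, adjusted p = 7.23e-09). Fgf5, the growth factor used as a marker of the implanted epiblast, was at 1.17 and 1.29 CPM in knockout cells and at 12.5 and 16.1 CPM in unmodified cells (-3.54 ± 0.35, adjusted p = 5.51e-06). Otx2, which drives the exit towards the formative state, was at 5.28 and 7.1 CPM in knockout cells and at 33 and 56.2 CPM in unmodified cells (-2.84 ± 0.32, adjusted p = 1.68e-05). For all 4 genes the knockout libraries agreed closely and lay below both unmodified ones. Zic2 (-0.35 ± 0.30) and Foxd3 (0.11 ± 0.30), transcription factors of the same stage, did not pass.

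**Figure D4:**
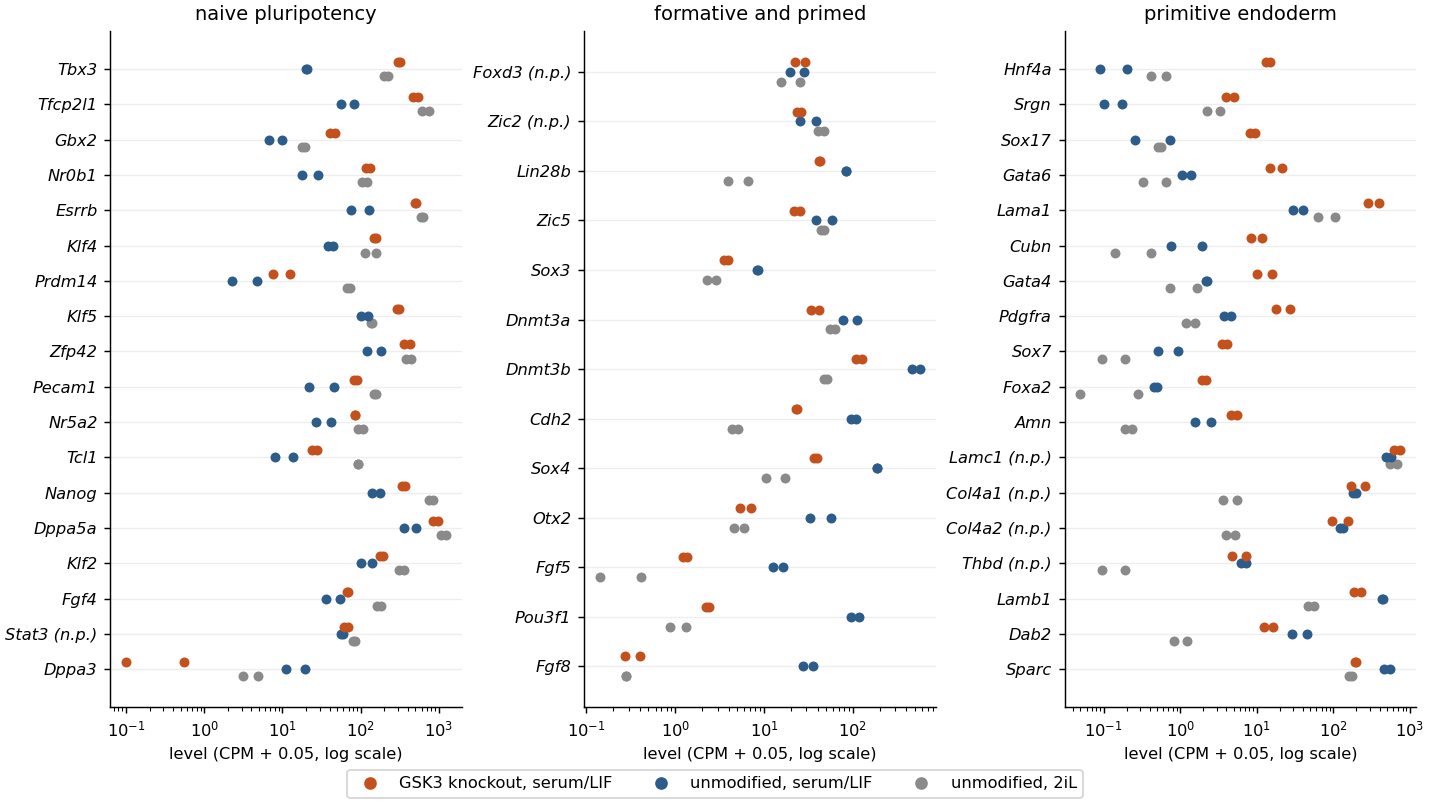
Level in each library (CPM + 0.05, log axis) of tested naive pluripotency, formative and primed, and (all but 1) primitive endoderm genes in order of log2 fold change; orange points are knockout and blue points unmodified libraries in serum/LIF, grey points unmodified libraries in 2iL, all with DMSO, and n.p. marks genes that did not pass in knockout against unmodified cells. Orange points lie right of blue ones for the naive list except Dppa3, left of them for the formative genes that passed, and right of both other groups for Hnf4a, Sox17, Gata6 and Lama1.

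Factors shared by all pluripotent states changed little. Of 12 tested 2 rose (16.7%) and 3 fell (25.0%), with a median of -0.06. Sox2 was at 319 and 349 CPM in knockout cells and at 153 and 234 CPM in unmodified cells (0.79 ± 0.23, adjusted p = 0.0141), and Pou5f1, which encodes Oct4, at 740 and 836 CPM in knockout cells and at 544 and 582 CPM in unmodified cells (0.49 ± 0.17, adjusted p = 0.0404). Neither call held throughout: that of Sox2 was lost without unmodified replicate 1 (adjusted p = 0.148) or knockout replicate 2 (adjusted p = 0.0685), and that of Pou5f1 without any 1 of the 4 libraries (adjusted p = 0.171 and 0.0891 without unmodified replicates 1 and 2, and adjusted p = 0.0673 and 0.188 without knockout replicates 1 and 2). Fgfr1, a receptor of the FGF signal that promotes exit from the naive state, fell by 0.73 ± 0.16 (adjusted p = 0.00285), and Zscan10, a pluripotency factor, by 0.54 ± 0.10 (adjusted p = 0.000971). Lin28a, which blocks let-7 microRNAs, fell by 0.70 ± 0.20 (adjusted p = 0.0126), a call lost without unmodified replicate 1 (adjusted p = 0.0827), knockout replicate 1 (adjusted p = 0.0554) or knockout replicate 2 (adjusted p = 0.0736). Trim28 (-0.03 ± 0.11) and Tdgf1 (-0.49 ± 0.21) did not pass. Without unmodified replicate 1 or knockout replicate 2 the list held 0 higher members, and without either of the others 1.

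Of 9 DNA methylation genes 2 were higher (22.2%) and 2 lower (22.2%), near the background shares of 18.9% and 21.0%. Tet2, which oxidizes methylated cytosine, was at 224 and 177 CPM in knockout cells and at 23.1 and 35.2 CPM in unmodified cells (2.80 ± 0.24, adjusted p = 2.1e-06). The de novo methyltransferase genes fell: Dnmt3b was at 125 and 109 CPM in knockout cells and at 462 and 564 CPM in unmodified cells (-2.13 ± 0.13, adjusted p = 1.78e-07), and Dnmt3a fell by 1.32 ± 0.22 (adjusted p = 0.000389). Uhrf1, which guides maintenance methylation, rose by 1.04 ± 0.10 (adjusted p = 4.51e-06), while the maintenance enzyme gene Dnmt1 (0.26 ± 0.12) and Tet1 (-0.34 ± 0.22) did not pass.

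Among transcripts of the Nodal pathway, which supports the formative and primed states and patterns the early embryo, more were lower than higher. Of 18 tested genes 10 fell and 3 rose, with a median of -0.56. Nodal itself was at 37.2 and 39.3 CPM in knockout cells and at 187 and 181 CPM in unmodified cells (-2.26 ± 0.17, adjusted p = 7e-07), and the ligand gene Gdf1 at 0.813 and 0.95 CPM in knockout cells and at 10.6 and 15.4 CPM in unmodified cells (-3.87 ± 0.55, adjusted p = 0.000113). The target Lefty1, a secreted Nodal inhibitor, fell by 3.21 ± 0.38 (adjusted p = 2.99e-05). Tdgf1, the coreceptor (-0.49 ± 0.21), and the ligand gene Gdf3 (0.12 ± 0.14) did not pass.

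Most mesendoderm genes were lower too, 7 of 12 tested, with 2 higher and a median of -1.88, or -0.67 with limma on log2(TPM + 1) and -2.56 without unmodified replicate 2. Mixl1, a homeobox gene of the primitive streak, was at 1.22 and 1.56 CPM in knockout cells and at 35.6 and 22.8 CPM in unmodified cells (-4.40 ± 0.29, adjusted p = 2.59e-07). Lhx1 and Mesp1, factors of the organizer and of early mesoderm, had 1 count each in the knockout libraries together. Against 237 counts in unmodified cells Lhx1 was 132-fold lower, with a counting interval of 23.5 to 5240 at 95% (adjusted p = 5.02e-05), and against 62 counts Mesp1 was 34.6-fold lower, with an interval of 5.99 to 1390 (adjusted p = 0.00355). Their fitted log2 values of -6.74 and -4.89 moved to -9.34 without knockout replicate 1 and -5.92 without knockout replicate 2 for Lhx1, and to -7.5 without knockout replicate 2 for Mesp1, and the Mesp1 call was lost without knockout replicate 1 (adjusted p = 0.0536). Mesp2 (0.20 ± 0.61) did not pass, nor did T, described above. Without knockout replicate 1 the list held 1 higher and 4 lower members, and without unmodified replicate 1 it held 0 and 6, and without either of the others 1 was higher.

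Of 22 Cdx and Hox genes, posterior homeobox genes, 5 were higher (22.7%) and 3 lower (13.6%), with a median of 0.33. The background shares were 18.9% and 21.0%. Hoxb13 was at 0.914 and 0.727 CPM in knockout cells and at 0.102 and 0.0512 CPM in unmodified cells (3.18 ± 0.63, adjusted p = 0.00139, and 3.86 without unmodified replicate 1). Hoxd9 was at 0.508 and 0.224 CPM in knockout cells and at 7.88 and 4.55 CPM in unmodified cells (-4.07 ± 0.58, adjusted p = 0.000116, and -4.78 without knockout replicate 1), and its neighbour Hoxd8 fell by 3.95 ± 0.44 (adjusted p = 1.81e-05). Cdx2, at 28.8 and 25.9 CPM in knockout cells and at 22 and 9.42 CPM in unmodified cells, did not pass (0.77 ± 0.35, adjusted p = 0.101), nor did Hoxb9 (0.40 ± 0.26). Without knockout replicate 1 the list held 3 higher members.

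Primitive endoderm, the extraembryonic layer that forms beside the epiblast, was the only lineage list in which most tested members rose, 12 of 19 (63.2%), with 3 lower and a median of 2.37, or 0.9 with limma on log2(TPM + 1). Hnf4a (ENSMUSG00000017950.16, chromosome 2, 163506808 to 163572910), a nuclear receptor of visceral endoderm, was at 14.8 and 13.1 CPM in knockout cells and at 0.0407 and 0.154 CPM in unmodified cells (7.44 ± 0.55, adjusted p = 1.11e-06). Sox17, an endoderm factor, was at 9.45 and 8.22 CPM in knockout cells and at 0.692 and 0.205 CPM in unmodified cells (4.09 ± 0.43, adjusted p = 1.01e-05). Both were close to absent in unmodified cells. Gata6 and Gata4, the factors that specify the lineage, rose by 3.91 ± 0.30 (adjusted p = 9.26e-07) and by 2.57 ± 0.36 (adjusted p = 9.81e-05). Lama1, a laminin of its basement membrane, was at 398 and 287 CPM in knockout cells and at 29.5 and 40.1 CPM in unmodified cells (3.31 ± 0.24, adjusted p = 5.42e-07). Srgn, a proteoglycan gene, rose by 5.41 ± 0.55 (adjusted p = 1.26e-05).

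Not all of the matrix genes followed Lama1. Lamc1 (0.38 ± 0.19) and Col4a1 (0.17 ± 0.26) did not pass, and Sparc fell by 1.38 ± 0.20 (adjusted p = 0.00013), Lamb1 by 1.08 ± 0.18 (adjusted p = 0.000394) and Dab2, an endocytic adaptor, by 1.37 ± 0.30 (adjusted p = 0.00275). Sparc and Lamb1 are also made by fibroblasts, whose markers were lower in knockout cells, and the part of those cells was not tested. The size of a rise moved by over 1.5 times for several genes when 1 library was left out. Hnf4a had a log2 value of 6.46 without unmodified replicate 1 and 8.25 without unmodified replicate 2, Sox17 one of 5.39 without unmodified replicate 1, and Srgn one of 6.3 without unmodified replicate 1. The endocytic receptor gene Cubn (2.86) and the endoderm factor gene Sox7 (2.37) had 3.82 and 3.01 without unmodified replicate 1. In unmodified cells in 2iL Hnf4a stood at 0.597 and 0.369 CPM and Gata6 at 0.597 and 0.276 CPM.

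Neuroectoderm genes were lower in 6 of 10 tested and higher in 1, with a median of -1.72. Nes, the intermediate filament of neural progenitors, was at 19.4 and 23.5 CPM in knockout cells and at 321 and 215 CPM in unmodified cells (-3.65 ± 0.33, adjusted p = 3.42e-06). Pax6, a neural and eye factor, was at 0.254 and 0.224 CPM in knockout cells and at 3.03 and 3.02 CPM in unmodified cells (-3.63 ± 0.53, adjusted p = 0.000151). Neurod1 fell by 2.59 ± 0.43 (adjusted p = 0.00041), with -3.18 without knockout replicate 1. Sox1, an early neural marker, moved the other way, at 1.73 and 1.34 CPM in knockout cells and at 0.326 and 0.0512 CPM in unmodified cells (2.72 ± 0.54, adjusted p = 0.00142, and 4.76 without unmodified replicate 1). Sox21 (0.17 ± 0.29) and Pax3 (-1.28 ± 0.71) did not pass.

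Trophoblast and simple keratin genes held some steep falls, with 9 of 13 tested lower, 0 higher and a median of -4.60. That median was -1.18 over 15 genes without the filter on low counts, -1.93 with limma on log2(TPM + 1), a scale that understates changes of low genes, and -3.98 without unmodified replicate 1. The paired keratins of simple epithelia, Krt8 and Krt18, were a small part of their unmodified level in knockout cells. Krt8 was at 15 and 11.5 CPM in knockout cells and at 1060 and 495 CPM in unmodified cells (-5.87 ± 0.40, adjusted p = 3.25e-07, and -5.22 without unmodified replicate 1). Krt18 was at 5.69 and 4.81 CPM in knockout cells and at 628 and 323 CPM in unmodified cells (-6.50 ± 0.39, adjusted p = 1.39e-07). Krt7, a keratin of trophoblast and ducts, had 4 counts in the knockout libraries together and 26.3 and 11.5 CPM in unmodified cells (-7.41 ± 0.74, adjusted p = 7.09e-06). Its fitted value ran from -11.83 without knockout replicate 2 to -6.38 without knockout replicate 1, and was -6.67 without unmodified replicate 1. Gata3 and Hand1, factors of trophoblast, fell by 4.99 ± 0.46 (adjusted p = 3.93e-06) and by 5.29 ± 0.44 (adjusted p = 2.68e-06). Tfap2a (0.38 ± 0.43) and Cdx2, both active early in trophoblast, did not pass, and without unmodified replicate 1 the list held 1 higher member.

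Genes of the 2-cell-like state, a rare state of ES cells that resembles the embryo at its first cleavage, were near 0 in knockout cells. Of 15 listed 7 were not tested, and the 8 that passed the filter on low counts did so through unmodified cells with DMSO, in serum/LIF or in 2iL, so that 8 of 8 fell is given as a description. Without the filter 9 of 14 were lower. Zscan4f, which lengthens telomeres, was at 0.305 and 0.224 CPM in knockout cells and at 11.6 and 5.27 CPM in unmodified cells (-4.98 ± 0.72, adjusted p = 0.000136, and -4.28 without unmodified replicate 1). Zscan4d had 3 counts and Zscan4b 1 count in the knockout libraries together, against 212 and 120 counts in unmodified cells. The ratios were 39.4-fold lower for Zscan4d (interval 13.3 to 193) and 67-fold lower for Zscan4b (interval 11.8 to 2670), with adjusted p = 0.000558 and adjusted p = 0.00417. Their fitted log2 values were -5.05 and -5.59, and without knockout replicate 2 they were -5.65 and -8.21. For Zscan4b the fitted value was -4.74 without unmodified replicate 1 and -4.66 without knockout replicate 1. Usp17la had no counts in knockout cells and was at least 4.47-fold lower (adjusted p = 0.0327), a call lost without unmodified replicate 1 (adjusted p = 0.257) or either knockout library (adjusted p = 0.136 without replicate 1 and adjusted p = 0.115 without replicate 2). How reads were divided among the Zscan4 copies, which are almost alike in sequence, is uncertain. Of the germline genes 3 of 14 rose (21.4%), near the background share of 18.9%, and 0 fell (1 fell with the scaling of DESeq2). The rises were led by the tudor domain gene Stk31 (1.48 ± 0.24, adjusted p = 0.000394) and the sex-determining factor Dmrt1 (1.22 ± 0.23, adjusted p = 0.00116). Sycp1, of the meiotic chromosome axis, rose by 1.15 ± 0.27 (adjusted p = 0.00452), a call lost without knockout replicate 1 (adjusted p = 0.0667), and Ddx4 (-0.34 ± 0.16) and Sycp3 (-0.75 ± 0.33) did not pass. Of the germline genes 1 was lower without unmodified replicate 1.

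Contractile genes fell in 11 of 11 and fibroblast genes in 14 of 16, with medians of -2.30 and -1.20 and 0 higher in either list. Cnn1, the calponin of smooth muscle, was at 1.68 and 3.52 CPM in knockout cells and at 90.7 and 46.5 CPM in unmodified cells (-4.74 ± 0.41, adjusted p = 2.07e-06, and -5.36 without knockout replicate 2). Tpm1, a tropomyosin, was at 58.5 and 67.6 CPM in knockout cells and at 1360 and 845 CPM in unmodified cells (-4.13 ± 0.25, adjusted p = 1.39e-07). Cnn2 fell by 4.02 ± 0.21 (adjusted p = 6.28e-08) and Tagln, or transgelin, by 3.68 ± 0.28 (adjusted p = 8.49e-07). These falls, named as the largest of the contractile list, were larger than those of the collagens that mark fibroblasts. Other contractile genes fell less than those collagens, with the smallest log2 value of the list at -0.97, for Actg2. Col3a1 was at 8.84 and 16.7 CPM in knockout cells and at 43.9 and 41.3 CPM in unmodified cells (-1.75 ± 0.33, adjusted p = 0.0014), and Col5a1 fell by 2.31 ± 0.22 (adjusted p = 5.42e-06). Twist2, a mesenchymal factor, fell by 2.98 ± 0.47 (adjusted p = 0.000478), and Dcn, a proteoglycan, by 3.10 ± 0.64 (adjusted p = 0.00287), a call lost without unmodified replicate 1 (-2.28, adjusted p = 0.0563). Thy1 (-0.23 ± 0.26) and Mgp (-0.49 ± 0.65) did not pass. Without knockout replicate 1, the library with the lower fibroblast sum, 9 fibroblast genes were lower. Fibroblast markers thus moved with the contractile genes, and the part of feeder cells in their fall was not tested.

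Adhesion and cytoskeleton genes fell in 15 of 21, with 1 higher and a median of -0.72. Dsp, the desmosomal plaque protein that anchors keratins, was at 12 and 9.72 CPM in knockout cells and at 398 and 239 CPM in unmodified cells (-4.87 ± 0.42, adjusted p = 2.07e-06). The tight junction genes Cldn7 and Cldn6 fell by 3.14 ± 0.18 (adjusted p = 1.05e-07) and by 2.82 ± 0.13 (adjusted p = 1.83e-08), with Cldn6 at 40.2 and 43.5 CPM in knockout cells and at 304 and 287 CPM in unmodified cells. Falls in this list took in epithelial genes and genes linked with mesenchyme alike. Cdh1, or E-cadherin, was at 682 and 620 CPM in knockout cells and at 1120 and 1200 CPM in unmodified cells (-0.84 ± 0.13, adjusted p = 0.000289), Cdh2, or N-cadherin, fell by 2.17 ± 0.18 (adjusted p = 1.87e-06) and Zeb2, a repressor of E-cadherin, by 2.32 ± 0.39 (adjusted p = 0.000459). Zeb1, a paralogue of Zeb2, was the 1 member that rose (1.03 ± 0.15, adjusted p = 0.000154). Fn1, which encodes fibronectin, was at 2840 and 2480 CPM in knockout cells and at 2880 and 2660 CPM in unmodified cells and did not pass (-0.06 ± 0.18), nor did Ocln (-0.49 ± 0.22).

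Targets and regulators of the YAP and TEAD factors, which answer to cell shape and contact, fell in 10 of 15 with 0 higher and a median of -1.28. Ccn1, a secreted matrix protein gene, was at 27.6 and 32.6 CPM in knockout cells and at 497 and 303 CPM in unmodified cells (-3.74 ± 0.30, adjusted p = 1.37e-06). Its relative Ccn2 was at 50.2 and 70.4 CPM in knockout cells and at 238 and 209 CPM in unmodified cells (-1.89 ± 0.21, adjusted p = 1.45e-05). Tead3 fell by 3.25 ± 0.26 (adjusted p = 1.15e-06) and Amotl2, an angiomotin that binds YAP, by 1.89 ± 0.24 (adjusted p = 5.36e-05). Yap1 itself was level at 167 and 167 CPM in knockout cells and 173 and 162 CPM in unmodified cells (-0.01 ± 0.09, adjusted p = 0.974), and Tead1 did not pass (0.12 ± 0.19). Ccn1 and Ccn2 are abundant in fibroblasts as well, and the part of feeder cells here was not tested.

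Genes that answer to the MEK-ERK cascade and genes of the LIF and STAT3 pathway were split by gene rather than moving together. Among 16 targets of the MEK-ERK cascade 5 rose and 7 fell, with a median of -0.36. The phosphatase genes Dusp4 and Dusp5 fell, Dusp4 to 18.6 and 14.5 CPM in knockout cells, against 145 and 83.8 CPM in unmodified cells (-2.79 ± 0.27, adjusted p = 5.46e-06), and Dusp5 by 2.95 ± 0.38 (adjusted p = 5.59e-05). Junb, an AP-1 gene that also answers to LIF, fell by 2.44 ± 0.19 (adjusted p = 1.05e-06). The ETS factor gene Etv4 and the feedback inhibitor gene Spry4 rose, Etv4 to 184 and 191 CPM in knockout cells, against 37 and 35.2 CPM in unmodified cells (2.37 ± 0.14, adjusted p = 1.6e-07), and Spry4 by 2.34 ± 0.17 (adjusted p = 4.76e-07). Etv5 (0.19 ± 0.11) and Egr1 (-0.07 ± 0.27) did not pass. In the LIF and STAT3 list 2 of 12 rose and 5 fell, with a median of -0.09. The cytokine gene Lif (-1.49 ± 0.22, adjusted p = 0.000135) and the kinase gene Jak2 (-1.34 ± 0.23, adjusted p = 0.000542) fell, the related kinase gene Tyk2 rose (0.78 ± 0.13, adjusted p = 0.000514), and the receptor genes Lifr (0.18 ± 0.16) and Il6st (0.05 ± 0.20) did not pass. That list held 3 lower members without unmodified replicate 1.

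BMP pathway and Id genes fell in 10 of 19 and rose in 4, with a median of -0.46. Nog, which encodes the BMP antagonist noggin, was at 0.356 and 1.01 CPM in knockout cells and at 23.3 and 11.9 CPM in unmodified cells (-4.72 ± 0.52, adjusted p = 1.46e-05), and ran from -5.62 without knockout replicate 2 to -4.13 without unmodified replicate 1 or knockout replicate 1. Id2, an inhibitor of basic helix-loop-helix factors, was at 2.03 and 1.34 CPM in knockout cells and at 41.4 and 28.4 CPM in unmodified cells (-4.36 ± 0.28, adjusted p = 2.11e-07). The target gene Msx1 fell by 4.61 ± 0.46 (adjusted p = 6.89e-06), with -3.93 without unmodified replicate 1, and the ligand gene Bmp2 by 3.95 ± 0.46 (adjusted p = 2.27e-05), with -4.62 without knockout replicate 1. Other ligand genes rose, Bmp4 to 173 and 185 CPM in knockout cells, against 63.6 and 51.2 CPM in unmodified cells (1.64 ± 0.13, adjusted p = 1.42e-06), and Bmp7 by 2.06 ± 0.20 (adjusted p = 4.45e-06). The receptor genes Bmpr1a (-0.02 ± 0.11) and Bmpr2 (-0.46 ± 0.19) did not pass.

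In the Notch list 8 of 14 fell and 2 rose, with a median of -0.83. Lfng, which modifies Notch receptors, was at 3.1 and 2.51 CPM in knockout cells and at 24.8 and 22.6 CPM in unmodified cells (-3.07 ± 0.26, adjusted p = 1.88e-06). The ligand genes Dll1 and Jag2 fell by 2.92 ± 0.36 (adjusted p = 4.17e-05) and by 2.22 ± 0.13 (adjusted p = 1.28e-07), and the target gene Hey2 by 2.18 ± 0.48 (adjusted p = 0.00309). Notch1 (-0.29 ± 0.16) and Jag1 (0.00 ± 0.20) did not pass. In the Hedgehog list 5 of 12 fell and 2 rose, with a median of -0.58. The effector genes Gli3 (-1.98 ± 0.30, adjusted p = 0.000221) and Gli1 (-1.54 ± 0.34, adjusted p = 0.00269) and the coreceptor gene Gas1 (-1.58 ± 0.29, adjusted p = 0.000917) fell. The ligand gene Ihh rose by 1.88 ± 0.47 (adjusted p = 0.00674), a call lost without unmodified replicate 1 (adjusted p = 0.0839) or knockout replicate 1 (adjusted p = 0.0732), and Ptch1 (-0.59 ± 0.28) and Sufu (-0.29 ± 0.13) did not pass. Without knockout replicate 1 the Hedgehog list held 1 higher and 3 lower members, and without unmodified replicate 1 it held 1 higher.

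Myc, whose protein is a known substrate of GSK3, did not pass at 79.4 and 88 CPM in knockout cells and 84.2 and 67.5 CPM in unmodified cells (0.14 ± 0.14, adjusted p = 0.452). Its relative Mycn was at 24.9 and 23.8 CPM in knockout cells and at 219 and 252 CPM in unmodified cells, and fell by 3.27 ± 0.17 (adjusted p = 6.36e-08). The 2 genes thus parted, with Mycn well separated between the groups. Of the 12 members of the Myc network 2 rose (16.7%) and 3 fell (25.0%), with a median of 0.01 that was -0.05 with the scaling of DESeq2. Mxd4 (-1.69 ± 0.28, adjusted p = 0.000443) and Mxd3 (-1.04 ± 0.22, adjusted p = 0.00226), antagonists of Myc, fell, and Mga, a Max partner that represses germline genes, rose by 1.01 ± 0.24 (adjusted p = 0.00424), a call lost without unmodified replicate 1 (adjusted p = 0.0501). Max did not pass (-0.23 ± 0.11), and without unmodified replicate 1 the list held 1 higher member.

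Glycogen metabolism, the process GSK3 is named for, changed in few genes: of 23 tested 3 rose and 4 fell, with a median of 0.14, which is below the background shares in both directions. Gys1, the muscle-type glycogen synthase, was at 35.7 and 41.9 CPM in knockout cells and at 23.8 and 22.9 CPM in unmodified cells (0.73 ± 0.12, adjusted p = 0.000309). Gyg, the glycogenin that primes the polymer, was at 2.18 and 3.13 CPM in knockout cells and at 18.2 and 13.6 CPM in unmodified cells (-2.59 ± 0.33, adjusted p = 5.01e-05). Stbd1, which tethers glycogen to membranes, fell by 3.13 ± 0.36 (adjusted p = 2.3e-05) and Gbe1, the branching enzyme, by 1.12 ± 0.18 (adjusted p = 0.000383), while Pgm2, a phosphoglucomutase, rose by 0.96 ± 0.16 (adjusted p = 0.000377). Gaa (0.23 ± 0.15) and Phkg2 (0.27 ± 0.12) did not pass.

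Glycolysis was close to background, with 3 of 17 higher, 3 lower and a median of 0.06. The glucose transporter genes parted: Slc2a1 was at 568 and 585 CPM in knockout cells and at 1480 and 1240 CPM in unmodified cells (-1.24 ± 0.18, adjusted p = 0.000122), and Slc2a3 rose by 0.71 ± 0.19 (adjusted p = 0.0104), a call lost without unmodified replicate 2 (adjusted p = 0.0961) or knockout replicate 1 (adjusted p = 0.0752). Pdk1, which diverts pyruvate from the mitochondria, rose by 1.03 ± 0.23 (adjusted p = 0.00305) and Gpi1 by 0.52 ± 0.10 (adjusted p = 0.00111), and Gapdh (0.02 ± 0.10) and Pkm (-0.01 ± 0.10) did not pass. Without either knockout library 1 glycolysis gene was lower.

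Genes that answer to the stress factor ATF4 rose in 9 of 16 (56.2%) and fell in 1, with a median of 0.40, or in 8 and 2 with the scaling of DESeq2. Asns, the asparagine synthetase, was at 503 and 499 CPM in knockout cells and at 172 and 168 CPM in unmodified cells (1.56 ± 0.10, adjusted p = 1.95e-07). The mitochondrial folate enzyme genes Shmt2 and Mthfd2 rose by 0.92 ± 0.13 (adjusted p = 0.000119) and by 0.76 ± 0.14 (adjusted p = 0.000982). Ddit4, an inhibitor of mTORC1, was the 1 member that fell, at 13.4 and 11.4 CPM in knockout cells and at 45.5 and 36.8 CPM in unmodified cells (-1.73 ± 0.15, adjusted p = 2.45e-06). Slc3a2 (-0.02 ± 0.13) and Phgdh (0.04 ± 0.14) did not pass. The count depended on single libraries, with 4 higher without unmodified replicate 1, 5 without knockout replicate 2 and 6 without knockout replicate 1.

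Lysosomal genes rose in 7 of 19 (36.8%) and fell in 2, with a median of 0.28. The protease gene Ctsb was at 258 and 273 CPM in knockout cells and at 119 and 135 CPM in unmodified cells (1.06 ± 0.11, adjusted p = 8.22e-06), and the hexosaminidase gene Hexa rose by 1.05 ± 0.15 (adjusted p = 0.00014). Gabarapl1, of the autophagosome, fell by 1.2 ± 0.19 (adjusted p = 0.000266), and the protease genes Ctsd (-0.25 ± 0.13) and Ctsl (0.14 ± 0.10) did not pass. NRF2 targets rose in 5 of 12 with 0 lower, but by small amounts, with a median of 0.10, and 3 rose with the scaling of DESeq2. Nfe2l2, which encodes NRF2, rose by 0.65 ± 0.12 (adjusted p = 0.000666). The calls of the detoxifying gene Nqo1 (0.61 ± 0.21), of Srxn1 (0.58 ± 0.20) and of the glutathione reductase gene Gsr (0.38 ± 0.10) were each lost without knockout replicate 2 (adjusted p = 0.164, 0.234 and 0.0691). They were lost too without other libraries, Nqo1 without unmodified replicate 1 and knockout replicate 1 (adjusted p = 0.28 and 0.0666), Srxn1 without unmodified replicates 1 and 2 (adjusted p = 0.133 and 0.085) and Gsr without unmodified replicate 2 (adjusted p = 0.0796). Without knockout replicate 2 the NRF2 list held 1 higher member, without unmodified replicate 1 it held 3 and without unmodified replicate 2 it held 2. Txnrd1 (-0.14 ± 0.11) and Gsta4 (0.12 ± 0.20) did not pass.

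Targets of p53 fell in 8 of 16 and rose in 2, with a median of -0.37. Perp, a membrane protein gene of desmosomes and cell death, was at 24.7 and 22.5 CPM in knockout cells and at 154 and 111 CPM in unmodified cells (-2.49 ± 0.26, adjusted p = 9.29e-06). Btg2, which slows division, fell by 1.38 ± 0.24 (adjusted p = 0.000529) and Bbc3, the cell death gene Puma, by 1.28 ± 0.22 (adjusted p = 0.000493). Fas, a death receptor, fell by 1.54 ± 0.50 (adjusted p = 0.027), a call lost without any 1 of the 4 libraries (adjusted p = 0.149 and 0.0722 without unmodified replicates 1 and 2, and adjusted p = 0.101 and 0.145 without knockout replicates 1 and 2). Trp53, which encodes p53 (0.17 ± 0.11), and Bax (-0.23 ± 0.15) did not pass. Without unmodified replicate 1 or knockout replicate 2 the list held 4 lower members, without unmodified replicate 2 it held 0 higher, and without knockout replicate 1 it held 1 higher and 5 lower.

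Of 14 G2/M genes 2 rose and 0 fell (median 0.05), and 1 rose and 1 fell with the scaling of DESeq2 (median -0.01), with the checkpoint gene Bub1b at 210 and 206 CPM in knockout cells and 127 and 130 CPM in unmodified cells (0.70 ± 0.09, adjusted p = 7.99e-05). Bub1 rose by 0.30 ± 0.10 (adjusted p = 0.0307), a call lost without unmodified replicate 1 (adjusted p = 0.208), knockout replicate 1 (adjusted p = 0.149) or knockout replicate 2 (adjusted p = 0.0822), each of which leaves 1 higher gene, and without unmodified replicate 2 1 gene was lower. Top2a (0.13 ± 0.10) and Mki67 (-0.35 ± 0.24) did not pass. Of 16 ribosome biogenesis genes 5 rose (31.2%) and 0 fell (median 0.19), led by Ubtf (0.73 ± 0.11, adjusted p = 0.000163) and Polr1b (0.47 ± 0.09, adjusted p = 0.00162), which serve RNA polymerase I, and with 1 library left out 2 to 3 rose, fewest without knockout replicate 2. Of 19 cholesterol synthesis genes 4 rose and 1 fell (median 0.01), but 3 rose and 3 fell with the scaling of DESeq2 in the same test (median -0.06) and 3 rose and 4 fell with DESeq2 itself; they were led by the feedback sensor Insig1 (0.53 ± 0.11, adjusted p = 0.00144) and the enzyme Sqle (0.45 ± 0.10, adjusted p = 0.00272). With 1 library left out 2 to 3 cholesterol genes rose and 0 fell, 2 without unmodified replicate 1 and without knockout replicate 1. Of 15 mitochondrially encoded genes 1 fell, mt-Co3 (-0.39 ± 0.14, adjusted p = 0.0415), a call lost without unmodified replicate 2 (adjusted p = 0.32) or either knockout library (adjusted p = 0.203 and adjusted p = 0.0888). Of 17 genes of BET proteins and their elongation partners 3 rose (17.6%) and 3 fell (17.6%), with a median of 0.19. They were led by Aff1 (1.16 ± 0.25, adjusted p = 0.00238) and the cyclin gene Ccnt2 (0.69 ± 0.14, adjusted p = 0.00169). The fallers dropped to 1 without unmodified replicate 1 or either knockout library. Brd2 (0.02 ± 0.10) did not pass.

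Imprinted genes, which are expressed from 1 parental copy and lose or gain expression in culture when their methylation drifts, fell in 14 of 24 and rose in 4, with a median of -0.58. Plagl1 (chromosome 10, 13060504 to 13131694), a paternally expressed zinc finger gene, was at 450 and 389 CPM in knockout cells and at 3.44 and 4.04 CPM in unmodified cells (6.83 ± 0.34, adjusted p = 4.27e-08). Cdkn1c, a growth inhibitor expressed from the maternal copy, was at 2.18 and 2.46 CPM in knockout cells and at 45.6 and 45.5 CPM in unmodified cells (-4.29 ± 0.23, adjusted p = 6.09e-08). Peg3, paternally expressed, was at 35.6 and 25.4 CPM in knockout cells and at 535 and 376 CPM in unmodified cells (-3.90 ± 0.34, adjusted p = 2.47e-06), and its neighbour Usp29 fell by 3.39 ± 0.32 (adjusted p = 4.45e-06). Genes of both parental origins thus fell. Igf2, a paternally expressed growth factor gene, fell by 3.26 ± 0.28 (adjusted p = 1.85e-06) while H19, its maternally expressed neighbour, was at 16.8 and 7.99 CPM in knockout cells and at 16.6 and 8.34 CPM in unmodified cells and did not pass (-0.02 ± 0.51). Peg10 (0.63 ± 0.28) and Igf2r (0.31 ± 0.18) did not pass. Whether such differences belong to the knockout or to separate culture histories cannot be told apart here.

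Interferon-responsive and antigen presentation genes fell in 13 of 17 (76.5%) and rose in 2, with a median of -1.80, or -1.14 with a stricter filter and -1.12 with limma on log2(TPM + 1). Psmb8, a subunit of the immunoproteasome, was at 0.203 and 0 CPM in knockout cells and at 21.6 and 11.8 CPM in unmodified cells (-7.24 ± 0.63, adjusted p = 3.97e-06). Its fitted value was -11.64 without knockout replicate 1 and -6.33 without knockout replicate 2. Isg15, a ubiquitin-like interferon target, had 1 count in the knockout libraries together and 208 in unmodified cells, 116-fold lower (interval 20.6 to 4610, adjusted p = 0.000354), and its fitted log2 value of -6.42 was -9.02 without knockout replicate 1, -5.6 without knockout replicate 2 and -5.83 without unmodified replicate 1. Ifit1, which binds foreign RNA, had 1 count against 47 and was 26.2-fold lower (interval 4.48 to 1060, adjusted p = 0.00585). Its fitted log2 value of -4.51 was -7.13 without knockout replicate 2, and its call was lost without knockout replicate 1 (adjusted p = 0.0713). Oasl2 fell by 3.33 ± 0.45 (adjusted p = 8.58e-05). H2-K1, a class I histocompatibility gene, was at 43.1 and 49.9 CPM in knockout cells and at 107 and 95.4 CPM in unmodified cells (-1.12 ± 0.14, adjusted p = 5.13e-05). Stat2 (1.16 ± 0.15, adjusted p = 6.38e-05) and Irf9 (0.83 ± 0.14, adjusted p = 0.000542), subunits of the factor that carries the interferon signal, were the 2 that rose. Bst2 (-0.18 ± 0.19) and Psmb9 (-0.79 ± 0.50) did not pass. The class I genes share sequence, so reads may be divided between them, and fibroblasts express this group too, whose part was not tested.

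Across all genes, 5088 protein-coding genes passed with a mean of at least 5 CPM in a group and no overlap between the groups. Of all genes tested, 72.3% did not overlap between the groups. The 15 with the highest log2 fold change included 3 neighbours on chromosome 13. Bhmt (93616675 to 93637961), betaine-homocysteine methyltransferase, was at 27.5 and 25.7 CPM in knockout cells and at 0.0815 and 0.102 CPM in unmodified cells (8.16 ± 0.59, adjusted p = 1.07e-06). Its paralogue Bhmt2 (93655720 to 93674302) rose by 5.42 ± 0.51 (adjusted p = 3.97e-06), with 6.03 without unmodified replicate 1, and Dmgdh (93674433 to 93752833), dimethylglycine dehydrogenase, by 5.57 ± 0.30 (adjusted p = 6.28e-08). The 3 genes lie side by side. Unmodified cells in 2iL had 91.5 and 45.1 CPM of Bhmt.

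The other highest genes had varied roles. Hnf4a, Plagl1, Hprt and Cdx1 are described above. Next to each other on the X chromosome, 4930502E18Rik rose by 6.54 ± 0.35 (adjusted p = 7.19e-08) and 1700013H16Rik by 5.85 ± 0.53 (adjusted p = 2.95e-06), with 6.71 for 1700013H16Rik without unmodified replicate 1. Klb, the coreceptor for FGF21, was at 6.2 and 4.53 CPM in knockout cells and at 0.143 and 0.102 CPM in unmodified cells (5.31 ± 0.57, adjusted p = 1.26e-05). Slc2a7, a sugar transporter, rose by 5.01 ± 0.44 (adjusted p = 2.43e-06), with 4.27 without unmodified replicate 1. Fkbp6, a germline chaperone, rose by 4.71 ± 0.35 (adjusted p = 6.24e-07), with 3.82 without unmodified replicate 1 and 5.45 without unmodified replicate 2. Krt23 rose by 4.54 ± 0.46 (adjusted p = 2.06e-05) and Ankrd33b by 4.44 ± 0.30 (adjusted p = 3.05e-07).

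The 15 lowest genes included 3 guanylate-binding proteins, interferon-induced GTPases encoded next to each other on chromosome 3. Gbp2 was at 0.203 and 0.168 CPM in knockout cells and at 163 and 80.3 CPM in unmodified cells (-9.31 ± 0.54, adjusted p = 2.2e-07, and -8.7 without unmodified replicate 1). Gbp2b had 7 counts in the knockout libraries and 7664 in the unmodified ones (-9.00 ± 0.53, adjusted p = 5.01e-07). Gbp3 had 2 counts against 1546 and was 432-fold lower (interval 119 to 3570, adjusted p = 1.52e-06). These 3 are close paralogues, so the split between them is uncertain, although all 3 were near 0 in knockout cells. The chemokine gene Cxcl10, also induced by interferon, had 1 count against 915 and was 511-fold lower (interval 91.7 to 20200, adjusted p = 3.23e-05). Its fitted log2 value of -8.46 was -11.06 without knockout replicate 1, -7.64 without knockout replicate 2 and -7.48 without unmodified replicate 1.

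Actc1, the cardiac actin, had 2 counts against 2215 and was 618-fold lower (interval 171 to 5100, adjusted p = 3.52e-05), with fitted log2 values from -12.3 without knockout replicate 1 to -7.73 without unmodified replicate 1 around -8.83, and with -7.96 without knockout replicate 2 and -9.43 without unmodified replicate 2. Pdlim3, of the muscle Z-disc, had 1 count against 1251 and was 698-fold lower (interval 125 to 27600, adjusted p = 2.15e-06), and its fitted value of -9.04 was -11.64 without knockout replicate 1 and -8.22 without knockout replicate 2. Sprr2a2, of the cornified envelope, was at 0.203 and 0.112 CPM in knockout cells and at 31.1 and 18.4 CPM in unmodified cells (-7.24 ± 0.52, adjusted p = 1.03e-06). 2 genes had no count in either knockout library. The uncharacterized 2310007B03Rik, at 14.6 and 9.16 CPM in unmodified cells, was at least 167-fold lower (adjusted p = 1.18e-05), and Itgb8, an integrin that activates TGF-beta, at 6.9 and 3.27 CPM in unmodified cells, was at least 75-fold lower (adjusted p = 0.000259). Itgb8 did not pass with DESeq2 (adjusted p = 0.168), and without unmodified replicate 1 its fitted log2 value was -9.11 in place of -9.93.

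Other genes among the lowest, beside Krt7 and Wnt3 above, were near 0 in knockout cells as well. Trim67, a ubiquitin ligase of neurons, had 3 counts against 2514 and was 468-fold lower (interval 160 to 2270, adjusted p = 9.52e-08). Gabra3, an X-linked GABA receptor subunit, had 2 counts against 666 and was 186-fold lower (interval 51.3 to 1540, adjusted p = 7.5e-06). Rasef, a GTPase of the Rab family, fell by 7.42 ± 0.45 (adjusted p = 3.17e-07), with -6.79 without knockout replicate 1 and -8.42 without knockout replicate 2.

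The same genotypes with JQ1 gave 4 libraries that are not shared with the DMSO comparison, although the cell lines are the same and any difference between lines is carried along. With JQ1 7476 genes passed between knockout and unmodified cells (44.0%), 3460 higher (20.4%) and 4016 lower (23.6%). Of the 6790 genes that passed with DMSO, 4486 (66.1%) passed with JQ1 in the same direction, which is 60.0% of the genes that passed with JQ1, and 89 passed in the opposite direction. All 30 of the highest and lowest genes passed with JQ1 in the direction they had with DMSO. Plagl1 had a log2 difference of 7.04 ± 0.34 with JQ1 and 6.83 ± 0.34 with DMSO, Gsk3a one of -1.43 ± 0.13 and -1.56 ± 0.13, and Axin2 one of 1.54 ± 0.26 and 1.65 ± 0.26. The test of the difference between the 2 treatments passed for 742 genes (4.37%), 212 of them higher with JQ1 (1.25%) and 530 lower (3.12%), and for 0 of these 30 genes and the 5 fixed ones by edgeR's quasi-likelihood test.

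**Figure D5:**
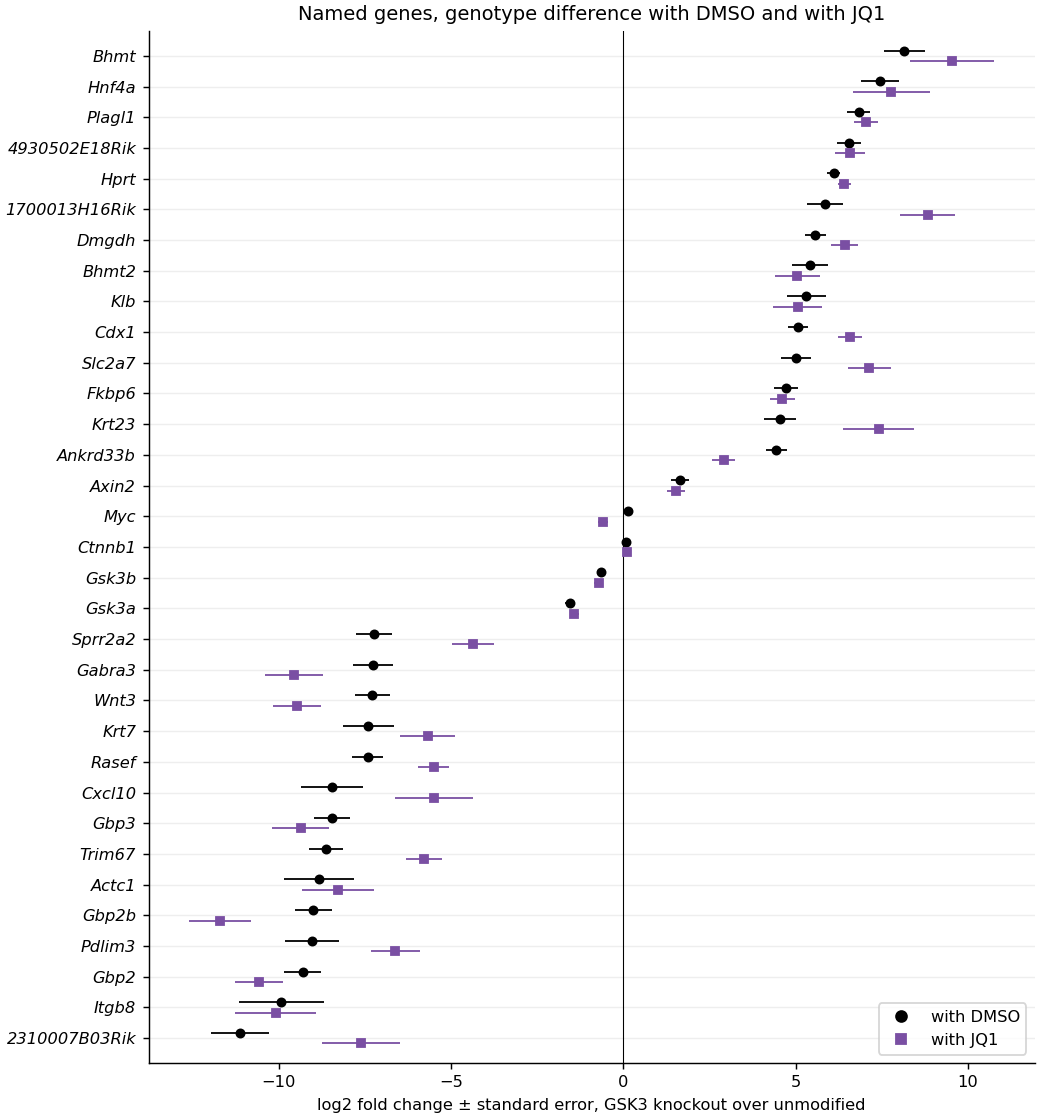
Log2 fold change of knockout over unmodified cells ± standard error (horizontal axis) for 14 of the 15 highest and 14 of the 15 lowest genes, Gsk3a, Gsk3b, Ctnnb1, Axin2 and Myc, with DMSO (black circles) and with JQ1 (purple squares). The 28 extreme genes shown lie on the same side of 0 under both treatments.

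By list, the genotype differences with JQ1 mostly had the same direction as with DMSO for the naive genes (15 of 18 higher and 2 lower with JQ1, median 2.68), the formative and primed genes (1 higher and 12 lower of 13, median -2.18), the primitive endoderm genes (11 higher and 6 lower of 19, median 2.37) and the Wnt ligands and receptors (4 higher and 25 lower of 38, median -1.64). The 2-cell-like list differed in count, with 0 of 8 passing in either direction with JQ1. Zscan4b had no counts in any of the 4 JQ1 libraries, and Zscan4f stood at 0.0343 and 0 CPM in knockout cells and 0.13 and 0.0968 CPM in unmodified cells there. The cholesterol list also differed in count, with 0 higher and 13 lower of 19 with JQ1. Other lists differed as well, among them those of p53 and ATF4. Targets of p53 had 5 higher and 3 lower of 16 with JQ1 (median 0.16, against -0.37 with DMSO). ATF4 genes had 4 higher and 3 lower of 16 with JQ1 (median -0.10, against 0.40 with DMSO). Fibroblast genes were lower in 13 of 16 with JQ1 as well, so their difference went with the genotype under both treatments.

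In 2iL, which holds inhibitors of both MEK and GSK3, unmodified cells gave levels that can be set beside those of the knockout. No test was made, because the MEK inhibitor, the medium and the feeder history differ as well. The parts of MEK and GSK3 inhibition in these levels cannot be told apart. Tbx3 stood at 224 and 197 CPM in 2iL, Tfcp2l1 at 601 and 746 CPM, Esrrb at 593 and 632 CPM and Nanog at 846 and 756 CPM. Pou3f1 stood at 1.28 and 0.829 CPM and Otx2 at 4.59 and 5.9 CPM. The knockout libraries in serum/LIF, given above, were nearer to these levels than to those of unmodified serum/LIF cells for Tbx3, Tfcp2l1, Esrrb, Pou3f1 and Otx2, but not for Nanog. These genes were picked from lists with large changes and do not stand for all genes. On the first principal component the knockout libraries, at -12.9 and -16.3, lay between the other groups. Unmodified libraries with DMSO lay at -120 and -111 in serum/LIF and at 95.3 and 99.7 in 2iL. Axin2 stood at 38.3 and 50.4 CPM in 2iL, near the unmodified serum/LIF cells, and Cdx1 at 54.4 and 28 CPM.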

How the data were processed

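Messenger RNA of 12 mouse ES cell libraries, 2 in each of 6 groups, was sequenced in read pairs. Per the submitters' processing notes, the authors used bcl2fastq, STAR 2.5.2, RSEM, DESeq2 1.18.1 and genome build mm10; the annotation release, strand setting and filters are not given in the sources used here. The deposited tables, per the file headers from RSEM, give estimated expected counts, TPM and an effective length for 52550 gene identifiers, of which 99.72% matched GENCODE M21 without their version; names, biotypes and coordinates come from that match. Between 6.11% and 8.71% of expected counts were not whole, and all were rounded.

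Genes kept by edgeR's filterByExpr (count minimum 10, total minimum 15) entered 1 quasi-likelihood fit of all 12 libraries and 6 groups with TMM scaling (R 4.3.3, edgeR 4.0.16), which left 6 residual degrees of freedom and a common biological coefficient of variation of 0.129. Tests were two-sided. CPM are scaled by TMM, and are not divided by gene length, so levels are not compared between genes. The deposited TPM were used in an alternative with limma 3.58.1 on log2(TPM + 1). Other alternatives were DESeq2 1.42.0, its scaling, 2 filters, the 4 libraries alone, a replicate block and each library left out. The script was tested on 3 simulated data sets with 200 genes changed in the knockout DMSO group. In the DMSO comparison 70.7% of changes of log2 1 and 95.3% of those of log2 2 were recovered. For JQ1 minus DMSO the shares were 45.3% and 84.7%. Of the calls, 7.43% and 7.57% were genes left unchanged, more than an adjusted p under 0.05 aims at. Counting intervals, at 95%, and the floor of 3 counts cover counting error only. Library totals ran from 17869865 to 48723436, and the shallower libraries set the precision of low genes.

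The lists and members were chosen with earlier results of these data known. Named genes are the 15 highest and the 15 lowest log2 fold changes among protein-coding genes that passed with a group mean of at least 5 CPM and no overlap; Gsk3a, Gsk3b, Ctnnb1, Axin2 and Myc; and in each list up to 4 that passed with the largest change and up to 2 that did not, taken by level. Others, such as Wls, Porcn, Fzd2, Fzd5, Sp5, Esrrb, Klf4, Klf2, Fgf4, Nanog, Gata4, Gata6, Lama1, Sparc, Cdh1, Bmp4, Gys1, Igf2, H19, H2-K1, Stat2 and Irf9, were chosen after their values were seen. A few genes that the rule names are not reported here. Upstream sequences are from RefSeq (GRCm38.p6).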

Additional observations from a re-analysis of the deposited data

Results flagged for a closer look

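The difference between knockout and unmodified cells itself differed between JQ1 and DMSO for 32 of the 243 genes named by the rule, by the interaction term in edgeR's quasi-likelihood test with Benjamini-Hochberg adjustment over all genes, which 4.37% of the genes tested passed. The values below, for 31 of them, are the log2 difference with JQ1 minus that with DMSO.

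Among pluripotency and lineage genes it was 3.60 for Fgf8, 1.79 for Otx2, 2.37 for Mixl1, 2.68 for Sp8 and 3.85 for Sox21, and -3.12 for Foxd3, -1.40 for Lin28a, -1.78 for Tet2, -0.75 for Stat3, -1.80 for Sycp1 and -1.07 for Lamc1. Fgf8 had a genotype difference of -3.13 with JQ1 and -6.73 with DMSO, so it stayed lower in knockout cells under both. Foxd3, a pluripotency factor, had one of -3.01 with JQ1 and 0.11 with DMSO.

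Among signalling genes it was 1.02 for Aes, -1.0 for Tle3, -1.30 for Lrp5, -1.02 for Ccnd1, -1.44 for Notch1, -1.91 for Egr1 and -1.38 for Junb. Among adhesion genes it was -3.29 for Ocln, -2.39 for Cldn7 and -1.50 for Cldn6. Ocln, a tight junction gene, had a genotype difference of -3.78 with JQ1 and -0.49 with DMSO.

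In cholesterol synthesis it was -0.74 for Insig1, -0.93 for Msmo1, -0.80 for Sqle and -0.96 for Srebf2, each lower with JQ1. Among stress, lysosomal and elongation genes it was 1.37 for Ddit4, 0.55 for Asns, -1.38 for Srxn1, 0.92 for Hexa, 0.96 for Larp7 and -0.54 for Brd2.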

How the results depend on the processing

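With DMSO 6790 genes passed, and between 5602 and 7637 did under the 9 alternatives that kept all 4 libraries compared; the lowest was limma on log2(TPM + 1) and the highest the block in the 4 libraries alone. With 1 library left out the count ran from 4512, without unmodified replicate 1, to 5651. Replicate numbers were not taken to pair the samples: same-numbered deviations correlated at 0.068 between knockout and unmodified libraries with DMSO, and between -0.185 and 0.185 over all pairs of groups, with 0.185 and 0.116 between the DMSO and JQ1 libraries of unmodified and knockout cells. The fit with replicate number as a block passed 7075 genes with DMSO, 7757 with JQ1 and 1110 for JQ1 minus DMSO. With JQ1 the count ran from 5218 to 7185 with 1 library left out. The count for JQ1 minus DMSO, 742, was 1350 with DESeq2 and 2009 without a filter on low counts, and ran from 212, without knockout JQ1 replicate 1, to 1781, without unmodified JQ1 replicate 2, when 1 library was left out; the cause was not tested. Of single-gene results 7707 kept their direction and their side of the threshold under an alternative, 344 lost a call, 162 gained one and 207 that passed in neither changed sign; 128 of the list counts moved by over 1.5 times and 886 did not. With 2 libraries a group, genes of few counts have fitted changes that 1 library can move.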
